A study of Mus musculus with 12 samples.

Results

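The aldo-keto reductase family was followed through 4-NQO tongue carcinogenesis in 10 genes of the Akr1 branch (Akr1a1, Akr1b3, Akr1b7, Akr1b8, Akr1c12, Akr1c13, Akr1c14, Akr1c18, Akr1c19 and Akr1c20), of 24477 genes on the array. The 10 genes were chosen by symbol, and the family was selected on the tumor minus normal difference of Akr1b8 in these same samples, so tumor minus normal values of the members, and the lesion average that contains them, are given as a description without a p-value. The platform annotation named 8 of the 10 probe sets, and the probe sets of Akr1b3 and Akr1b7 were named through their NCBI gene numbers.

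Tongue epithelium was collected by laser microdissection from male CBA mice at 4 stages: normal mucosa from 3 untreated mice aged 24, 12 and 20 weeks, and hyperplasia, dysplasia and tumor from 3 mice each that had received 100 µg/mL of the carcinogen 4-nitroquinoline 1-oxide (4-NQO) in drinking water for 8 weeks. The treated mice were aged 16, 20 or 24 weeks, and each of the 12 samples came from a different mouse and was hybridised to 1 Affymetrix Mouse Gene ST 2.0 array. Treatment and lesion cannot be told apart, because no treated mouse gave normal mucosa and no untreated mouse gave a lesion. All values are the deposited normalised log2 intensities, so a difference of 1 is a doubling of signal.

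Aldo-keto reductases are soluble enzymes that use NADPH to reduce aldehydes and ketones to alcohols, among them sugars, retinal, steroids, prostaglandins and the reactive aldehydes left by lipid peroxidation. Several of them are targets of NRF2 (gene Nfe2l2), the transcription factor that KEAP1 holds down until oxidants or electrophiles release it, and which then binds antioxidant response elements. 4-NQO itself must be reduced inside the cell before it damages DNA and is also a source of oxidants.

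The Akr1b genes lie side by side on chromosome 6 in the order Akr1b3, Akr1b8, Akr1b10 and Akr1b7, with a pair of pseudogenes between Akr1b8 and Akr1b10. The Akr1c members lie on chromosome 13 in the order Akr1c14, Akr1c18, Akr1c13, Akr1c19, Akr1c12 and Akr1c20, with Akr1c6 between Akr1c12 and Akr1c20, and Akr1c21 and Akr1e1 beyond Akr1c20. RefSeq promoters on build GRCm38.p6, running from 250 bases before to 50 bases after the start, were found for 8 of the 10 members (not Akr1b3 or Akr1c20). They were searched on both strands for the antioxidant response element core TGACNNNGC, which 12.4% of 32851 promoters hold, and for the AP-1 site TGANTCA, which 7.81% hold. Akr1c19 was the 1 member with a match to the core, and no member matched the AP-1 letters. The promoters of 3 neighbours with unlike values in the lesions (Akr1b8, Akr1b10 and Akr1b7, at chr6:34353896-34354195, chr6:34383997-34384296 and chr6:34412112-34412411) and of Akr1c19 (chr13:4233490-4233789), all on the plus strand, are shown 5′ to 3′. Capitals mark the core, which in Akr1c19 lies on the minus strand from base 8 to base 16 after the start. The promoters of Akr1b8, Akr1b10 and Akr1b7 hold neither motif in these windows.
Akr1b8: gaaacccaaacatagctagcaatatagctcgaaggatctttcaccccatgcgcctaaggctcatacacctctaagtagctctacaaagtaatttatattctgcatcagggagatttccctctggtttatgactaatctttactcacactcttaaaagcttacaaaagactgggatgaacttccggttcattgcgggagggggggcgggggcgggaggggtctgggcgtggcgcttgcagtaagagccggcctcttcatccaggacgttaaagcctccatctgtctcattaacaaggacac
Akr1b10: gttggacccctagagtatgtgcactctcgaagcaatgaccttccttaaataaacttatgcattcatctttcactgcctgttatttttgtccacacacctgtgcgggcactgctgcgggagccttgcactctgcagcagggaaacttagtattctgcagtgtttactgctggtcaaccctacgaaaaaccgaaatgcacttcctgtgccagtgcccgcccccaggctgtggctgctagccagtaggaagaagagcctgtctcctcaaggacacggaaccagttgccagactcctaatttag
Akr1b7: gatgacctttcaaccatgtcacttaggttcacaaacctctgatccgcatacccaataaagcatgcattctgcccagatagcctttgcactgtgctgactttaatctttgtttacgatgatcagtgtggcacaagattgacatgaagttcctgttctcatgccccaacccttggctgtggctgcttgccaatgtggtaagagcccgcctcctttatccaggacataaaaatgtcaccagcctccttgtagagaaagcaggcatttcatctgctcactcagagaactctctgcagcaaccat
Akr1c19: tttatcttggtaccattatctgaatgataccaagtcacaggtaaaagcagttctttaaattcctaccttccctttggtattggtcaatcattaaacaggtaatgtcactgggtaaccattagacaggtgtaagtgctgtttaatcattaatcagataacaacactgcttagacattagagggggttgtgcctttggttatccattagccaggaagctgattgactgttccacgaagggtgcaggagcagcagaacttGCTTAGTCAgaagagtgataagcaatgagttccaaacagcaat

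As a yardstick of background, chosen after the values were seen, the 1066 olfactory receptor genes on the array were used, since tongue epithelium is not known to express most of them. Their median was between 3.81 and 4.30 on the 12 arrays, and their 95th percentile between 6.14 and 6.65. Akr1a1 was above that percentile on all 12 arrays. Akr1b8 was above it on 10, in all 9 lesions and in 1 of the 3 normal samples (normal 3), so its normal level was above background on 1 array only and no fold ratio is given, whereas Akr1b3 was above it on 2 arrays (normal 1 and normal 3) and Akr1c13 on 1 (tumor 3). Akr1b7, Akr1c12, Akr1c14, Akr1c18, Akr1c19 and Akr1c20 were above it on none. Probe sets differ in affinity, so a value inside this range does not show that a gene was silent.

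**Figure D1:**
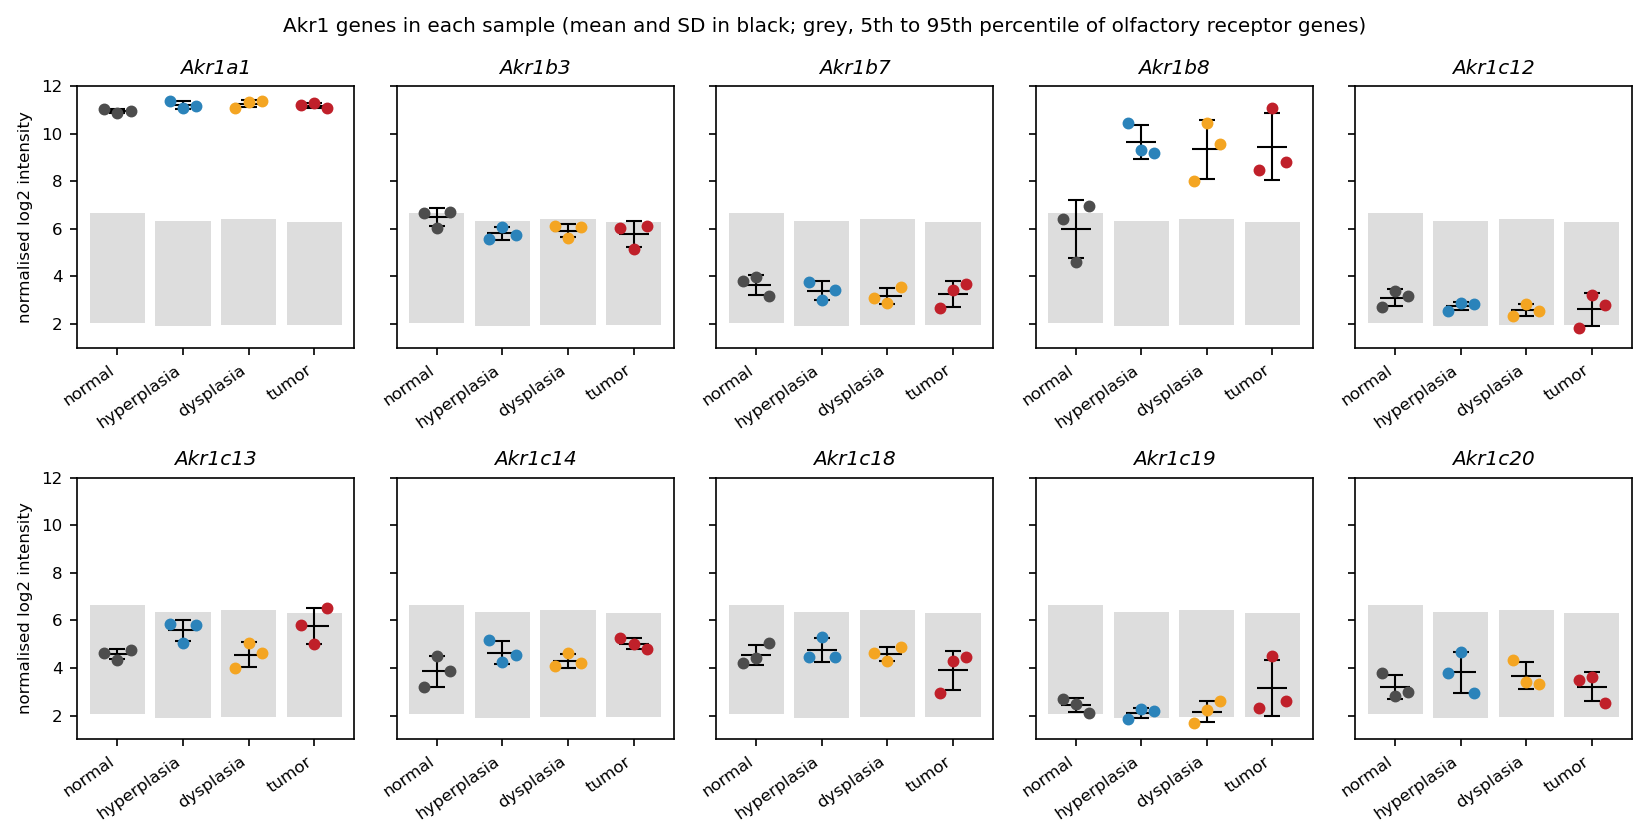
Normalised log2 intensity (y axis) of the 10 Akr1 genes in each of the 12 samples, with 3 mice per stage ordered from normal mucosa to tumor on the x axis. Points are samples, black bars the stage mean and SD, and grey the 5th to 95th percentile of olfactory receptor genes in each stage. Akr1b8 lies between 8.00 and 11.09 in the 9 lesions, against 4.6 to 6.95 in normal mucosa.

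Akr1b8 encodes an aldose reductase-like enzyme that was first found as a gene induced by fibroblast growth factor and that reduces retinal and lipid aldehydes. Its intensities in normal mucosa were 6.43, 4.6 and 6.95. They were 10.46, 9.33 and 9.17 in hyperplasia, 8.00, 10.46 and 9.58 in dysplasia, and 8.46, 11.09 and 8.83 in tumor. All 9 lesions were above all 3 normal samples. These are bulk samples, in which fewer cells of a type and less RNA per cell cannot be told apart. The lowest lesion was dysplasia 1 and the highest tumor 2, and within normal mucosa the sample taken at 12 weeks, normal 2, was the lowest.

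Akr1b8 was higher by 3.66 ± 0.79 in hyperplasia (9.65 in hyperplasia and 5.99 in normal mucosa; SE, n = 3 each; 95% confidence interval 1.94 to 5.39; limma adjusted p = 0.135). In dysplasia it was higher by 3.35 ± 0.79 (9.35 in dysplasia and 5.99 in normal mucosa; interval 1.63 to 5.08; limma adjusted p = 0.0825). In tumors the difference was 3.47 ± 0.79 (9.46 in tumor and 5.99 in normal mucosa). These 3 differences share the same 3 normal samples and are not independent of the difference that was known beforehand. Neither hyperplasia nor dysplasia passed the adjusted threshold of 0.05, although the absolute difference ranked 26th and 65th of all 24477 genes. The pooled SD within stages was 1.18, which is at the 99.2nd percentile of all genes, so this gene was among the most variable between mice of the same stage.

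The lesion stages could not be ordered by Akr1b8. Dysplasia minus hyperplasia was -0.31 ± 0.79 (9.35 in dysplasia and 9.65 in hyperplasia; interval -2.03 to 1.42). Tumor minus dysplasia was 0.11 ± 0.79 (9.46 in tumor and 9.35 in dysplasia; interval -1.61 to 1.84). Both intervals admit changes of more than 1 in either direction, and the values of the 3 stages overlapped.

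Over the members together, the count past the adjusted threshold was 0 of 10 in hyperplasia, where 0.0654% of all genes were called, and 0 of 10 in dysplasia, where 0.764% were called. At an unadjusted p under 0.05 limma counted 4 of 10 members in hyperplasia (Akr1b3, Akr1b8, Akr1c13 and Akr1c14), where 9.76% of all genes passed, and 1 of 10 in dysplasia (Akr1b8), where 12.2% passed. The methods' t-test counted 2 in each, beside 8.50% and 8.82% of all genes. In tumors the adjusted count was 1 of 10 (Akr1b8, 1.97% of all genes called), and in the average of the 3 lesion stages it was again 1 of 10 (Akr1b8, 2.02% called). Akr1b8 was the gene known when the family was chosen, so nothing is read from these last counts. The tumor count became 0 when any single sample other than dysplasia 1 or dysplasia 2 was left out, and the lesion count became 0 without normal 1 or without normal 2. RNA quality was uneven between tumor and normal mucosa: every tumor sample had a higher RNA integrity number than every normal sample. The paper reports that this number did not differ significantly among its groups. With that number as a covariate both counts were 0 (Akr1b8 3.06 in tumor minus normal and 3.24 in lesions minus normal). The part of RNA quality in the result was not tested.

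**Figure D2:**
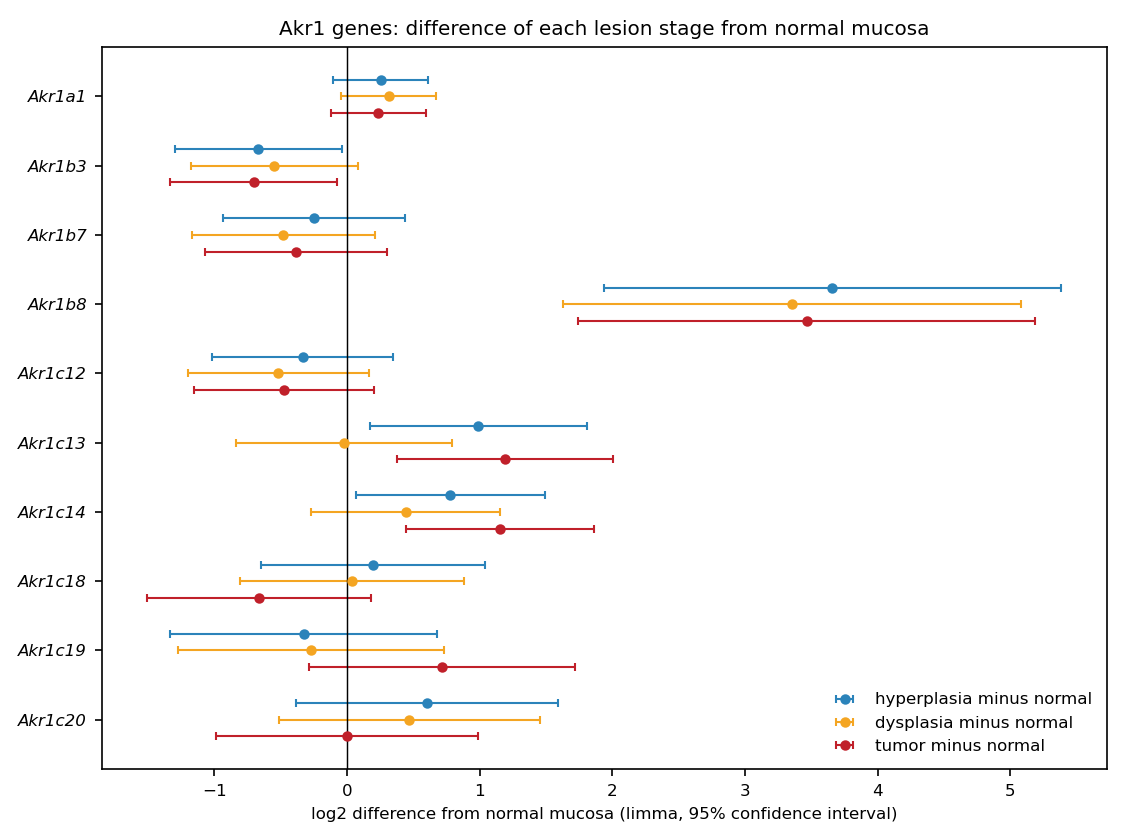
Log2 difference of hyperplasia, dysplasia and tumor from normal mucosa (x axis) for each of the 10 Akr1 genes (y axis), with 95% confidence intervals from limma that are not adjusted for the number of genes. Akr1b8 is at 3.66, 3.35 and 3.47, and the other 9 genes lie between -0.70 and 1.19.

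Akr1a1, the aldehyde reductase that makes L-gulonate for ascorbate synthesis in mice, was the steadiest member. It measured 11.02, 10.87 and 10.94 in normal mucosa, 11.37, 11.08 and 11.14 in hyperplasia, 11.08, 11.33 and 11.37 in dysplasia, and 11.20, 11.27 and 11.07 in tumor. All 9 lesions were again above all 3 normal samples, but by little. The differences were 0.25 ± 0.17 in hyperplasia (11.20 in hyperplasia and 10.94 in normal mucosa), 0.31 ± 0.17 in dysplasia (11.26 in dysplasia) and 0.24 ± 0.17 in tumor (11.18 in tumor). The adjusted p from limma was 0.666 in hyperplasia and 0.47 in dysplasia. Its pooled SD within stages of 0.13 was at the 1.98th percentile of all genes, below the SD that limma shrinks towards (0.296). The mean of 5 endothelial markers had r = 0.77 with Akr1a1 over the 12 samples and 0.67 over the 9 lesions, and its part in the difference was not tested.

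Akr1b3, the aldose reductase that turns glucose into sorbitol, lay on the other side of normal mucosa. It measured 6.68, 6.05 and 6.72 in normal mucosa, 5.58, 6.09 and 5.76 in hyperplasia, 6.12, 5.61 and 6.07 in dysplasia, and 6.04, 5.15 and 6.13 in tumor. Normal 2 overlapped with the lesions, and the other 2 normal samples were above all 9. The differences were -0.67 ± 0.29 in hyperplasia (limma adjusted p = 0.48), -0.55 ± 0.29 in dysplasia (limma adjusted p = 0.471) and -0.70 ± 0.29 in tumor, and none was called. With the RNA integrity number as a covariate, all 4 differences of lesions from normal mucosa shrank, the tumor one to -0.32.

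The remaining Akr1b member, Akr1b7, is known in the mouse as a protein of vas deferens and adrenal gland that detoxifies aldehydes and makes prostaglandin F2α. It stayed between 2.66 and 3.97 on the 12 arrays, below the 95th percentile of the olfactory receptors. Its differences from normal mucosa were -0.25 ± 0.32 in hyperplasia, -0.48 ± 0.32 in dysplasia and -0.39 ± 0.32 in tumor, with overlapping values.

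Of the Akr1c group, whose enzymes act on the hydroxyl and keto groups of steroids, Akr1c13 and Akr1c14 had the largest differences. Akr1c13 measured 4.64, 4.35 and 4.77 in normal mucosa, 5.85, 5.06 and 5.82 in hyperplasia, 4.00, 5.06 and 4.64 in dysplasia, and 5.79, 5.01 and 6.53 in tumor. Hyperplasia and tumor were each above all normal samples, whereas dysplasia overlapped with them. The difference was 0.99 ± 0.38 in hyperplasia (5.58 in hyperplasia and 4.59 in normal mucosa; limma adjusted p = 0.408), -0.02 ± 0.38 in dysplasia (4.56 in dysplasia; limma adjusted p = 0.99) and 1.19 ± 0.38 in tumor (5.78 in tumor).

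Between the lesion stages, Akr1c13 in dysplasia was lower than in hyperplasia by 1.01 ± 0.38 on the log2 scale (interval -1.83 to -0.20) and tumor was higher than dysplasia by 1.21 ± 0.38 (interval 0.40 to 2.03). Neither passed the adjusted threshold (limma adjusted p = 1 and 0.727), and the samples overlapped in both. In all 4 stages every Akr1c13 value except that of tumor 3 was below the 95th percentile of the olfactory receptors. Between these stages, calls were scarce in all genes: 0% were called in dysplasia minus hyperplasia (1112 genes at an unadjusted p under 0.05) and 0.00409%, 1 gene, in tumor minus dysplasia (1553 genes unadjusted), with 0 of 10 members in each. That 1 gene was Cd3g, a T cell gene of the leukocyte list, at -2.76, a call lost with the RNA integrity number as a covariate. Unadjusted, limma counted 1 member in dysplasia minus hyperplasia (Akr1c13; 4.54% of all genes) and 2 in tumor minus dysplasia (Akr1c13 and Akr1c14; 6.34%), and the methods' t-test 0 (3.98% of all genes) and 1 (5.69%). In the lesions Akr1c13 ran against the mean of 7 leukocyte markers, with Pearson r = -0.91 over the 9 samples, and the markers were at 6.70 to 7.43 in dysplasia, against 6.03 to 6.77 in hyperplasia and 6.04 to 6.23 in tumor. Of these markers Cd68 was above the olfactory receptor 95th percentile on 11 arrays, Ptprc and Cd3e on 6, Cd3g on 4, Itgam on 3, Cd14 on 2 and Csf3r on 0. Both sides of this r were thus largely in the background range, which limits what it can show. The part of leukocytes in the Akr1c13 values was not tested.

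Akr1c14, the 3α-hydroxysteroid dehydrogenase of the mouse, measured 3.21, 4.51 and 3.89 in normal mucosa, 5.18, 4.23 and 4.53 in hyperplasia, 4.08, 4.64 and 4.22 in dysplasia, and 5.27, 5.0 and 4.80 in tumor. The 3 tumors were above all normal and all dysplasia samples. The difference from normal mucosa was 0.78 ± 0.33 in hyperplasia (limma adjusted p = 0.463), 0.44 ± 0.33 in dysplasia (limma adjusted p = 0.635) and 1.15 ± 0.33 in tumor, and tumor minus dysplasia was 0.71 ± 0.33 (limma adjusted p = 0.782). All 12 values were below the 95th percentile of the olfactory receptors. With the RNA integrity number as a covariate the tumor difference was 0.56 and the dysplasia difference 0.16, and without the 4 samples with a number under 6 (normal 1, normal 3, hyperplasia 2 and dysplasia 1) the dysplasia difference was -0.08. Over the 9 lesions Akr1c14 had r = -0.84 with the mean of the leukocyte markers, and over the 12 samples r = -0.74 with the mean of the glandular and taste markers, and their part in its values was not tested.

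Akr1c18, the 20α-hydroxysteroid dehydrogenase that inactivates progesterone, ranged between 2.94 and 5.31, with its lowest value in tumor 1 and its highest in hyperplasia 2. Its differences from normal mucosa were 0.20 ± 0.39 in hyperplasia, 0.04 ± 0.39 in dysplasia and -0.66 ± 0.39 in tumor. Akr1c12 ranged between 1.86 and 3.41, and its differences were -0.34 ± 0.31, -0.52 ± 0.31 and -0.48 ± 0.31 in hyperplasia, dysplasia and tumor. All of these groups overlapped.

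Akr1c19 was at 1.69 to 2.70 on 11 arrays and at 4.52 in tumor 2, so 1 array set its tumor difference of 0.72 ± 0.46 (3.16 in tumor and 2.44 in normal mucosa). Tumor 2 was also the sample with the highest Akr1b8. Akr1c20 ranged between 2.52 and 4.69, and its differences were 0.60 ± 0.45 in hyperplasia, 0.47 ± 0.45 in dysplasia and -0.00 ± 0.45 in tumor. Neither gene was called in any comparison or was above the 95th percentile of the olfactory receptors on any array.

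Read as shares, 1 member exceeded 1 on the log2 scale in hyperplasia (Akr1b8; 1.12% of all genes did so upwards) and 1 in dysplasia (Akr1b8; 1.84%). In tumors 3 members did (Akr1b8, Akr1c13 and Akr1c14; 2.40%). Between lesions, Akr1c13 alone passed 1, downwards in dysplasia minus hyperplasia (0.911% of all genes) and upwards in tumor minus dysplasia (0.703%). Counting groups with no overlap, 3 members were higher in hyperplasia (Akr1a1, Akr1b8 and Akr1c13; 7.08% of all genes), 2 in dysplasia (Akr1a1 and Akr1b8; 7.28%), 4 in tumor (Akr1a1, Akr1b8, Akr1c13 and Akr1c14; 10.3%) and 2 in all lesions (Akr1a1 and Akr1b8; 1.97%). In tumor minus dysplasia it was 1 (Akr1c14; 4.94%). The median difference of the members was 0.22 in hyperplasia, 0.01 in dysplasia and 0.12 in tumor, beside -0.04, -0.02 and -0.05 over all genes, and 6, 5 and 5 of the 10 differences were above 0.

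**Figure D3:**
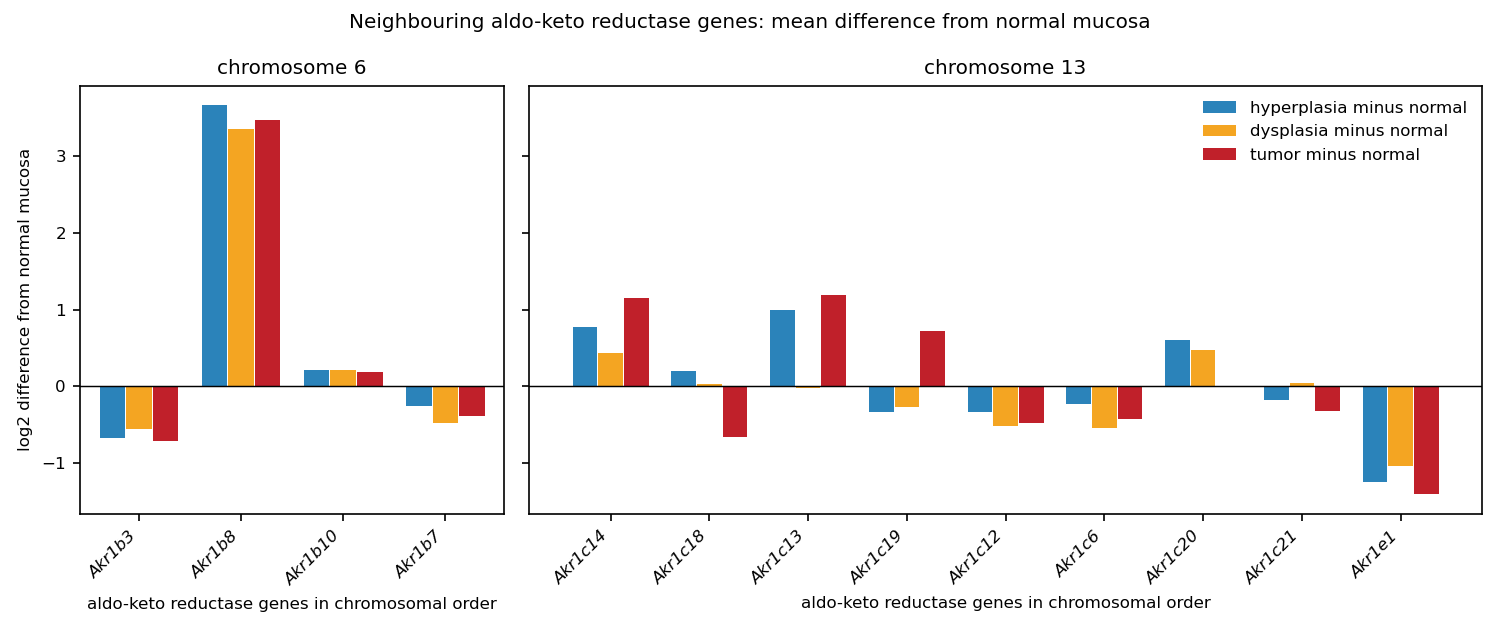
Mean log2 difference of each lesion stage from normal mucosa (y axis) for the aldo-keto reductase genes of chromosomes 6 and 13 in chromosomal order (x axis), including neighbours that are not among the 10. On chromosome 6 Akr1b8 is at 3.66, 3.35 and 3.47 between Akr1b3, at -0.67, -0.55 and -0.70, and Akr1b10, at 0.21, 0.22 and 0.19.

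The neighbours of Akr1b8 did not share its measured values, but most of their own values lay in the background range. Akr1b3 and Akr1b10 were above the 95th percentile of the olfactory receptors on 2 arrays each and Akr1b7 on none. This limits what their differences can show. Akr1b10, a further aldose reductase-like gene, measured between 5.17 and 6.61, with differences of 0.21 ± 0.34 in hyperplasia, 0.22 ± 0.34 in dysplasia and 0.19 ± 0.34 in tumor. On chromosome 13 Akr1c13, at 0.99 in hyperplasia, and Akr1c19, at -0.33, were neighbours within the family, with a tRNA gene between them. Neither was called, and both were below the 95th percentile of the olfactory receptors in normal mucosa and hyperplasia. Of the 10 further genes of the superfamily, Akr1b10 included, none was called in any stage (limma unadjusted p under 0.05 in 0, the methods' t-test unadjusted in 1 in hyperplasia and 1 in tumor). Akr1e1, an anhydrofructose reductase, was -1.24 ± 0.79 in hyperplasia, -1.04 ± 0.79 in dysplasia and -1.40 ± 0.79 in tumor, but its lesion values ran between 4.64 and 7.78 and overlapped with normal mucosa (6.94 to 7.76). Akr1d1, the 5β-reductase of bile acid synthesis, was 0.78 ± 0.65, 0.28 ± 0.65 and 0.91 ± 0.65 in hyperplasia, dysplasia and tumor.

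Akr1c6, a 17β-hydroxysteroid dehydrogenase, Akr1c21 and Akr1cl had tumor differences of -0.42, -0.32 and -0.38. Akr7a5, which reduces the aldehyde form of aflatoxin, was 0.18 ± 0.23 in tumor. The potassium channel beta subunits Kcnab1, Kcnab2 and Kcnab3, which share the fold of the enzymes, were at -0.07, -0.13 and -0.07. Akr1c6, Akr1c21, Akr1cl, Kcnab2 and Kcnab3 were above the 95th percentile of the olfactory receptors on no array, and Akr1d1 and Kcnab1 on 3 each. An unchanged level of these genes is therefore not shown.

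Which genes followed Akr1b8 from sample to sample was described by Pearson's r over the 12 samples among 23264 named genes outside the family, with r after removing the stage means beside it. The 5 most alike were Adgrl4 (r = 0.97, and 0.96 with stage means removed), an adhesion receptor known from endothelium, Slc3a2 (0.95 and 0.93), the heavy chain that pairs with SLC7A11 in the cystine transporter, the splicing factor gene Rbm17 (0.94 and 0.95), the ATP synthase subunit gene Atp5g3 (0.93 and 0.78) and Me2 (0.93 and 0.77), the mitochondrial malic enzyme. Without normal 1 and normal 2, the samples farthest from the median of Akr1b8, r was between 0.81 and 0.92 for these 5. All points share 1 normalisation and the difference between normal and lesion, and the genes were picked for this likeness.

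Slc3a2 measured 8.93, 8.65 and 9.56 in normal mucosa, 10.87, 10.34 and 10.40 in hyperplasia, 9.43, 10.61 and 10.41 in dysplasia, and 10.48, 11.23 and 10.29 in tumor. Its lowest lesion value was in dysplasia 1 and its highest in tumor 2, as with Akr1b8. Dysplasia 1 overlapped with normal mucosa and the other 8 lesions did not. For the other members followed in this way, the most alike genes were Jpt2 (0.92 and 0.79), Fbxo11, Rplp1, Tenm3 and Fam133b for Akr1c13, and Tomm5 (0.92 and 0.85), Rbm14, Gpaa1, Ssna1 and Stt3b for Akr1c14, so the 3 members had no gene in common among their 5.

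Slc7a11, the cystine transporter subunit and a well-known NRF2 target, was the list gene that tracked Akr1b8 most closely inside the lesions. It measured 7.95, 8.54 and 7.85 in normal mucosa, 12.08, 11.31 and 11.27 in hyperplasia, 10.15, 11.68 and 11.66 in dysplasia, and 10.75, 12.42 and 10.82 in tumor. Over the 9 lesions alone, r with Akr1b8 was 0.97 and Spearman's rho was 1, so both genes ranked the 9 lesions in the same order. Across the 3 normal samples the order was reversed: normal 2 had the lowest Akr1b8 and the highest Slc7a11.

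**Figure D4:**
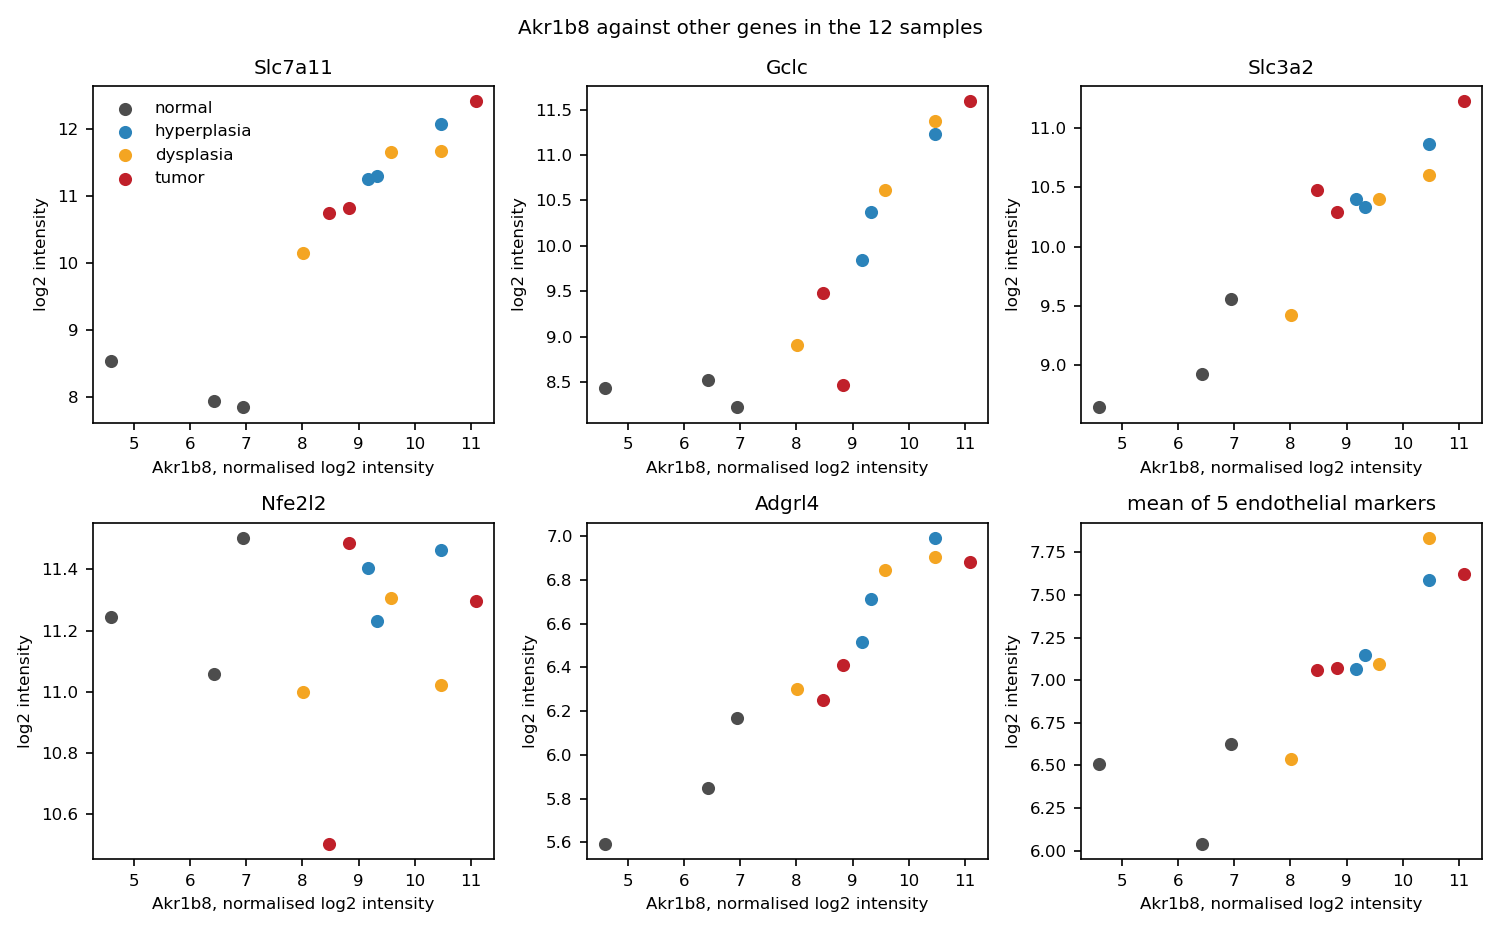
Normalised log2 intensity of Akr1b8 (x axis) against Slc7a11, Gclc, Slc3a2, Nfe2l2, Adgrl4 and the mean of 5 endothelial markers (y axes) in the 12 samples, coloured by stage. In the 9 lesions r is 0.97 for Slc7a11, 0.92 for Gclc, 0.87 for Slc3a2, 0.40 for Nfe2l2, 0.91 for Adgrl4 and 0.92 for the endothelial markers.

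The wider list of NRF2 targets, written with earlier results of these data known, held 29 genes besides the members, of which 27 were measured. In hyperplasia 1 of 27 was called and rose (Slc7a11 by 3.44 ± 0.49, limma adjusted p = 0.0254), and 25 of 27 differences were above 0. In dysplasia it was again 1 (Slc7a11 by 3.05 ± 0.49, limma adjusted p = 0.0156), with 24 of 27 above 0. In tumor 4 were called and rose: Slc7a11 by 3.22, Gclm, the regulatory subunit of glutathione synthesis, by 1.62, Ugdh, which makes UDP-glucuronate, by 1.48, and Tkt, the transketolase of the pentose phosphate pathway, by 1.27. The medians of the list were 0.75 in hyperplasia, 0.70 in dysplasia and 0.71 in tumor, beside -0.04, -0.02 and -0.05 over all genes. At an unadjusted limma p under 0.05, 11, 11 and 13 of the 27 passed in these stages, beside 9.76%, 12.2% and 16.9% of all genes. In the lesion average 6 were called, the same 4 with Gstp1 (1.36) and Gsta4 (0.80), both of which conjugate glutathione. Of the 12 fits that left out 1 sample, the lesion call was kept in 12 for Slc7a11, 10 for Gclm, 6 for Tkt, 5 for Gstp1, 4 for Ugdh and 4 for Gsta4.

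These counts moved with single samples. The tumor count was 1 without normal 1, normal 2, tumor 1 or tumor 2, and the lesion count was 1 without normal 1 or normal 2. The hyperplasia count was 0 without any 1 of the 3 normal samples, hyperplasia 1 or hyperplasia 3, and the dysplasia count was 0 without normal 1, normal 3, dysplasia 2 or dysplasia 3 and 3 without dysplasia 1. With the RNA integrity number as a covariate the tumor count was 0 and the lesion count 1.

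The same list was then read against Akr1b8 within the lesions, which leaves the normal samples out. Over the 9 lesions 19 of the 27 targets had r above 0.6 with Akr1b8, and the median r of all 27 was 0.76, where 7.08% of the 24476 other genes passed 0.6 and the median was -0.02. Besides Slc7a11 the highest were Cbr3 (0.94), a carbonyl reductase, Gclc (0.92), the catalytic subunit of glutathione synthesis, Gstp1 (0.90), Fth1 (0.90), Prdx1 (0.89), Gsta3 (0.89) and Nqo1 (0.88), the quinone reductase. Hmox1 (-0.03) and Gstm1 (-0.08) did not follow it. Gpx2 (-0.21) and Ftl1 (-0.09) lay in the background range of the olfactory receptors in all 9 lesions, at 3.82 to 5.28 and 2.74 to 4.23. Nothing is therefore read from the r values of Gpx2 and Ftl1. With stage means removed over all 12 samples the median r of the list was 0.62.

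Gclc and Nqo1 show what this means in single samples. Gclc measured 8.52, 8.43 and 8.22 in normal mucosa, 11.23, 10.37 and 9.85 in hyperplasia, 8.91, 11.38 and 10.61 in dysplasia, and 9.47, 11.59 and 8.47 in tumor. Nqo1 measured 9.91, 10.03 and 9.60 in normal mucosa, 11.11, 10.82 and 9.92 in hyperplasia, 10.20, 11.19 and 10.66 in dysplasia, and 9.81, 11.61 and 9.77 in tumor. Hyperplasia 1, dysplasia 2 and tumor 2 were the highest of their stage for Akr1b8, Gclc, Nqo1 and Slc7a11 alike, and tumor 3 was inside the normal range for Gclc and Nqo1 although its Akr1b8 was 8.83. Neither Gclc nor Nqo1 was called in any stage against normal mucosa.

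Of the 8 regulators of the pathway none was called in any stage (limma unadjusted p under 0.05 in 1 in hyperplasia, 0 in dysplasia and 2 in tumor, beside 9.76%, 12.2% and 16.9% of all genes). Nfe2l2 itself was 0.10 ± 0.25 in hyperplasia, -0.16 ± 0.25 in dysplasia and -0.17 ± 0.25 in tumor, and Keap1 was 0.37 ± 0.19, 0.28 ± 0.19 and 0.44 ± 0.19. The largest difference was that of Mafg, a small MAF partner of NRF2, at 0.88 in hyperplasia, 0.43 in dysplasia and 0.57 in tumor, and Maff, a further partner, was -0.53 in tumor. These are transcript values and do not measure the amount or activity of the protein.

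Over the 9 lesions r with Akr1b8 was 0.70 for Akr1a1, -0.87 for Akr1b3, 0.05 for Akr1c13, 0.35 for Akr1c14, 0.65 for Akr1c12 and 0.56 for Akr1c19 (Spearman's rho 0.27). Akr1b3 and, except for Akr1c13 in tumor 3, these Akr1c members were below the 95th percentile of the olfactory receptors in all 9 lesions, so nothing is read from their r values.

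Other pathways in which the enzymes act were described from lists of the same kind. Among 19 other enzymes of aldehydes and carbonyls none was called in hyperplasia, dysplasia or tumor (limma unadjusted p under 0.05 in 3, 2 and 6, beside 9.76%, 12.2% and 16.9% of all genes), where the largest differences were those of Adh7 (1.64 in hyperplasia and 1.46 in dysplasia), a retinol and ethanol dehydrogenase of upper digestive epithelium, Adh1 (-0.84 in hyperplasia), Aldh3b1 (1.20 in dysplasia), Aldh3a1 (-1.73 in tumor) and Aldh1a3 (1.09 in tumor). In the lesion average 1 rose, Aldh3b1 by 0.93, a call kept in 5 of the 12 fits that left out 1 sample and lost with the RNA integrity number as a covariate. Of 6 measured genes of the polyol and ascorbate pathways, Slc2a1, the glucose transporter GLUT1, rose in dysplasia by 1.44 and in tumor by 2.08 (limma adjusted p = 0.0141 and 0.0018), and in hyperplasia it was 1.27 (limma adjusted p = 0.0718). The dysplasia call was lost without normal 1, normal 2, dysplasia 2 or dysplasia 3, and the tumor call with none of the 12 samples left out. The other 5 were not called, and the next largest in hyperplasia was Khk, ketohexokinase, at -0.50.

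Of 16 measured genes of retinoid metabolism, Stra6, the membrane receptor for retinol-binding protein, fell by 1.19 on the log2 scale in tumor, and in the lesion average Stra6 fell by 1.05 and Dhrs3, a retinal reductase, by 0.89. The tumor call was lost without normal 1, normal 3, tumor 1 or tumor 2, and the lesion calls of Stra6 and Dhrs3 were kept in 10 and 3 of the 12 fits that left out 1 sample. With the RNA integrity number as a covariate, and without the 4 samples with a number under 6, Stra6 was called neither in tumor nor in the lesion average. None rose, and none was called in hyperplasia or dysplasia (limma unadjusted p under 0.05 in 3 and 4, beside 9.76% and 12.2% of all genes), where Stra6 was -0.98 and -0.99 and the retinoic acid binding proteins Crabp1 and Crabp2 were -1.89 and 1.79 in dysplasia. Of 20 measured genes of steroid and prostaglandin metabolism none was called in a single stage (limma unadjusted p under 0.05 in 2 in hyperplasia, 1 in dysplasia and 5 in tumor, beside 9.76%, 12.2% and 16.9% of all genes). Ptgs2, the inducible cyclooxygenase, was 3.91 in hyperplasia, 1.92 in dysplasia and 3.04 in tumor and passed the threshold in the lesion average, at 2.96 (kept in 3 of the 12 fits that left out 1 sample and lost with the RNA integrity number as a covariate), while Hpgd, which inactivates prostaglandins, was -1.01, -1.09 and -2.36.

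The epithelial origin of the samples was checked with 10 keratinocyte markers (among them Krt5, Krt14 and Trp63), which were above the 95th percentile of the olfactory receptors on all 12 arrays and whose mean lay between 11.11 and 11.57. Single markers moved both ways under this mean: in tumor Krt4, a keratin of differentiated mucosa, fell by 2.97 on the log2 scale (limma adjusted p = 0.0286) and Dsg3, a desmosomal cadherin, rose by 1.29 (limma adjusted p = 0.0388), calls kept in 7 and 4 of the 12 fits that left out 1 sample and lost with the RNA integrity number as a covariate, and Krt13 was -0.71 and not called. The keratinocyte markers do not measure RNA of other cells. The mean of 10 skeletal muscle markers was 6.52 to 9.96 in normal mucosa, 6.67 to 9.61 in hyperplasia, 5.92 to 7.27 in dysplasia and 5.78 to 7.57 in tumor. It had r = -0.17 with Akr1b8. Acta1, a muscle marker, measured 12.02 in normal 1, beside 12.16 for Krt5 in the same sample. In dysplasia and in tumor 8 of the 10 muscle markers were under -1 against normal mucosa, and none was called. Fibroblast markers, glandular and taste markers and leukocyte markers had r of -0.38, -0.27 and 0.39 with Akr1b8 over the 12 samples. Over the 9 lesions these had the other sign, at 0.26, 0.23 and -0.34, and so did the muscle markers, at 0.12. The mean of the keratinocyte markers had r = -0.13 with Akr1b8 over the 12 samples and -0.67 over the 9 lesions. Dcn, a fibroblast marker, measured 11.65, 11.05 and 11.64 in normal mucosa. It was called lower in dysplasia (-3.29), tumor (-3.06) and the lesion average (-2.59). Dcn had the lowest difference of the 7 fibroblast markers and was the only 1 called. Their median was -0.16 in dysplasia, -0.53 in tumor and -0.15 in the lesion average, with 2 under -1 in each. In dysplasia 1 of the 7 was above 0, in tumor 2 and in the lesion average 0. Of the leukocyte markers, Cd3g was called higher in dysplasia (2.95) and in the lesion average (1.41). The part of keratinocyte, muscle, fibroblast, glandular, taste and leukocyte RNA in the Akr1b8 values was not tested.

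Endothelial markers moved with Akr1b8. The mean of Pecam1, Cdh5, Kdr, Tek and Emcn was 7.06 to 7.59 in hyperplasia, 6.54 to 7.84 in dysplasia and 7.06 to 7.62 in tumor, against 6.04 to 6.62 in normal mucosa. Its r with Akr1b8 was 0.87 over the 12 samples and 0.92 over the 9 lesions, and with Akr1b3 it was -0.83 over the 12 samples. With Akr1a1 it was 0.77 over the 12 samples and 0.67 over the 9 lesions, and with Akr1c14 0.74 and 0.51 in the same order. All 5 markers were above 0 in each stage against normal mucosa and 1, Cdh5, was called in tumor (1.33, limma adjusted p = 0.0294), a call lost without normal 1, normal 2, tumor 1 or tumor 2 and with the RNA integrity number as a covariate. Pecam1 and Kdr were above the olfactory receptor 95th percentile on 11 arrays, Cdh5 on 10, Emcn on 8 and Tek on 4. The part of endothelial RNA in the values of Akr1b8, Akr1b3, Akr1a1 and Akr1c14 was not tested.

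Amplified RNA was prepared on 8 days, and 2 days held samples of more than 1 stage. On the day shared by tumor 1 and normal 2, Akr1b8 differed by 3.86, Akr1c13 by 1.45, Akr1c14 by 0.76 and Akr1b3 by -0.00. Akr1a1 differed by 0.33, Akr1c20 by 0.64 and Akr1c19 by -0.18. In this pair of single samples, members at background level moved about as far as Akr1c13: Akr1c12 by -1.55, Akr1c18 by -1.50 and Akr1b7 by -1.31. Normal 2 was also the lowest normal sample for Akr1b8. On the day shared by tumor 2, tumor 3 and dysplasia 1, tumor minus dysplasia was 1.95 for Akr1b8, 1.78 for Akr1c13 and 0.82 for Akr1c14. There Akr1c19 was at 1.88 and Akr1c20 at -1.25, both at background level, and the other members lay between -0.48 and 0.65. For Akr1b8, dysplasia 1 was the lowest lesion and tumor 2 the highest. Neither day can separate a stage difference from the scatter between mice. Hyperplasia shared no day with another stage, so its differences could not be read within a day.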

How the data were processed

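Per the labels and the study's methods, the authors amplified RNA of laser microdissected tongue epithelium, hybridised it to Affymetrix Mouse Gene ST 2.0 arrays, and deposited RMA values with quantile normalization on the log2 scale, 1 column per sample. The version of RMA is not given in the sources used here. Of 24479 probe sets, 23281 had a symbol in the platform annotation and 1198 had none. Where a symbol had several probe sets the brightest was kept, which left 24477 genes. The number of arrays limits the precision.

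A mean per stage was fitted to all 12 samples with limma 3.58.1 in R (lmFit and eBayes; 8 residual and 4.22 prior degrees of freedom), with Benjamini-Hochberg adjustment over all genes at 0.05. P-values measure the spread between these mice. The fit was tested on simulated data. The methods' t-test was run on the same values. Olfactory receptor genes as a yardstick, and leaving out the 4 samples with an RNA integrity number under 6, were chosen after seeing the data. The members and lists were chosen with earlier results of these data known. Named were all 10 members, all other aldo-keto reductase genes and the 5 genes most like Akr1b8, Akr1c13 and Akr1c14. For each list and contrast up to 4 called genes were to be named. Where none was called, the 2 with the largest difference were to be named, which was not done for every list and contrast. A few further list and marker genes were named after their values were seen. Columns of other samples numbered 0. RNA integrity numbers and preparation days came from the study's sample records. Alternatives covered normalization, filters, covariates, blocks, the study's fold rule, a t-test and each sample left out. Replicate numbers did not pair the samples. Promoters are RefSeq's. Protein sequences were not used here.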

Additional observations from a re-analysis of the deposited data

How the results depend on the processing

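Members past the threshold numbered 0 in hyperplasia, 0 in dysplasia, 1 in tumor and 1 in the lesion average against normal mucosa, 0 in dysplasia minus hyperplasia and 0 in tumor minus dysplasia. Quantile normalization applied again, the dimmest 30% left out, an intensity trend, the preparation day as a random block and the mean of probe sets changed none of these 6 counts. Leaving out the dimmest 30% kept only Akr1a1, Akr1b3 and Akr1b8, so the other members could not be called there. Only 2 symbols of all genes had 2 probe sets, so their mean could change little. The tumor count was 0 with the RNA integrity number or age as a covariate, with only the groups compared and with the methods' t-test after Benjamini-Hochberg. Fitting only the groups compared has no separate form for the lesion average. The lesion count was 0 with the RNA integrity number and with that t-test after adjustment. Without adjustment the t-test gave 2, 2, 3, 4, 0 and 1 members in the order above, where 8.50%, 8.82%, 14%, 15.5%, 3.98% and 5.69% of all genes passed. The study's fold rule (over 1 in either direction) gave 1, 1, 3, 1, 1 and 1, beside 2.77%, 4.22%, 5.49%, 3.28%, 1.74% and 1.70% of all genes. Leaving out 1 sample at a time gave 0 to 0 members in hyperplasia, 0 to 1 in dysplasia (1 without dysplasia 1), 0 to 1 in tumor, 0 to 1 in the lesion average, and 0 to 0 in both comparisons between lesions. Leaving out the 4 samples with an RNA integrity number under 6, an alternative chosen after seeing the data, gave 0 in tumor and 0 in the lesion average, and there normal 2 was the only normal sample left and is assumed to vary like the other groups.

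Akr1b8 stayed above 0 against normal mucosa in every alternative run, between 2.96 and 5.22 in hyperplasia, 2.66 and 5.42 in dysplasia, 2.65 and 4.86 in tumor. Its comparisons between lesions took both signs. With the replicate block the tumor count was 0, the lesion count 1 and the others 0. Deviations of same-numbered samples correlated between -0.11 and 0.11, so the samples share only a number. Of the 5 genes most like Akr1b8, 2 stayed among the first 5 after the stage means were removed.

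With 3 mice a stage, an SE of 0.79 for Akr1b8 leaves differences between lesion stages of more than 1 undecided. For 6 of the 10 members all values lay below the 95th percentile of the olfactory receptor genes. So did all Akr1c13 values except that of tumor 3, and all lesion values of Akr1b3. This limits what the differences of these members can show.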
